A study of Mus musculus with 183 samples.

Results

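The mRNAs described here encode 7 RNA-binding proteins that control the stability of other mRNAs: Zfp36, Zfp36l1, Zfp36l2, Elavl1, Hnrnpd, Khsrp and Pum2. They were chosen by name from a list of AU-rich and Pumilio element binding proteins, and 7 of 7 were found among the 53380 genes of the half-life count table and among the 7240 mRNAs of the relative binding table. The study mapped the RNA targets of decay factors in mouse embryonic stem cells (mESCs) by CRAC, in which UV light crosslinks RNA to a tagged protein, and it measured RNA half-lives by RNA-seq after transcription was blocked with actinomycin D. For the half-lives it used an mESC line in which the helicase SKIV2L of the cytoplasmic Ski complex can be deleted, and a line that in addition lacks AVEN, a partner of that complex. Its design asks whether loss of SKIV2L, of AVEN or of both changes how fast mRNAs disappear.

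The line called 5F carries Rosa26Cre-ERT2/- and Skiv2l fl/fl. The line called 7E carries Rosa26Cre-ERT2/BirA-V6, a Skiv2l gene tagged with 3xFLAG-Avi on both alleles and Aven-/-, and the study's methods add that the tagged Skiv2l was also flanked by loxP sites. Each line was sampled without 4-hydroxytamoxifen (4OHT, which activates CreERT2), called day 0, and after 4 days in 0.1 uM 4OHT, called labelled day 4. Within each of these 4 states, cells were given DMSO for the same time as the longest treatment (mock) or actinomycin D for 120, 240 or 360 min, with 3 libraries per group and 2 for 5F at day 0 and 120 min. The labels give actinomycin D as 5 ug/ul and the methods as 5 µM. Each line is 1 clone, so genotype and clone cannot be told apart, and the replicates are called technical in the methods, so a p-value here measures only the spread between such libraries.

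AU-rich elements are stretches rich in A and U in the 3′ UTRs of many short-lived mRNAs. The CCCH zinc finger proteins ZFP36 (tristetraprolin), ZFP36L1 and ZFP36L2 bind them and recruit the CCR4-NOT deadenylase, which shortens the poly(A) tail and leads to decay of the mRNA. KHSRP (KSRP) also promotes decay of AU-rich mRNAs, HNRNPD (AUF1) can shorten or lengthen their life depending on the target, and ELAVL1 (HuR) mostly stabilises them. PUM2 binds the Pumilio element and likewise recruits deadenylation. Several of these genes carry AU-rich elements in their own mRNAs, and ZFP36 is a textbook case of a protein that acts on its own mRNA.

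To show where such elements lie, the 3′ UTR of the transcript that the relative binding table names was searched, on the sense strand, for ATTTA, for the longer TATTTAT, which holds an ATTTA in each copy, and for the Pumilio element TGTA-N-ATA. Zfp36, Zfp36l1 and Zfp36l2 had 3 copies each of TATTTAT. The sites below are from GRCm38, 25 bases each, with 1 copy of TATTTAT in capitals. In the Elavl1 stretch the overlapping copies that follow it are in lower case. All copies of Zfp36, the mRNA with the steepest fall in actinomycin D, are shown, together with the first copy from the stop codon in the 4 other mRNAs that had any.
Zfp36, chr7:28376968-28376992, minus strand: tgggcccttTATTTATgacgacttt
Zfp36, chr7:28376953-28376977, minus strand: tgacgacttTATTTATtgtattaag
Zfp36, chr7:28376928-28376952, minus strand: attttatagTATTTATatatattgg
Zfp36l1, chr12:80108424-80108448, minus strand: atcaaaacgTATTTATtgccaaact
Zfp36l2, chr17:84184916-84184940, minus strand: tatttaactTATTTATtatcttgtg
Elavl1, chr8:4285790-4285814, minus strand: catgaaaatTATTTATttatttatt
Pum2, chr12:8749818-8749842, plus strand: aagcaaaacTATTTATtgactttct

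In the 774-base 3′ UTR of Zfp36, 3 copies of TATTTAT are more than most UTRs of like length hold. Among 900 UTRs of 0.8 to 1.25 times that length, 20.7% had at least 1 copy and 0.556% had at least 3. For Zfp36l1 (1835 bases) 38.8% of 1017 such UTRs had a copy and 3.93% had at least 3, and for Zfp36l2 (1822 bases) 39.0% of 1010 had a copy and 3.96% had at least 3. Elavl1, with 4218 bases, had 8 copies, several of them overlapping one another, and 0.2% of 500 like UTRs had as many. Pum2 had 1 copy in 281 bases, as at least 8.27% of 532 like UTRs did, and Hnrnpd had 0 in 5429 bases, where 67.3% of 300 like UTRs had some. ATTTA occurred 3 times in Zfp36, 9 times in Zfp36l1, 5 times in Zfp36l2, 17 times in Elavl1, 10 times in Hnrnpd and 2 times in Pum2, and between 37.6% and 100% of the UTRs of like length had it. The Pumilio element was found in 0 of these 6 UTRs, and between 9.40% and 61.7% of the UTRs of like length had it. The transcript of Khsrp could not be matched by its version and length and was not searched. The Pum2 transcript searched ends before the annotated end of the gene at chr12:8752581. Any 3′ UTR of longer Pum2 transcripts was not searched, for either kind of element. A match of letters describes the sequence and is not a measured site.

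The 47 libraries held between 24440935 and 34114250 counts (median 28307574), so depth differed little between groups. In each of the 12 treated groups 1 library stood apart: replicate 1 at 120 min, replicate 2 at 240 min and replicate 3 at 360 min, in both clones and both days. A first component of the within-group deviations held 53% of their variance over 10593 genes, and in 12 of 12 groups the library named had the highest value on it and the highest share of ERCC spike-in counts. It was also the lowest library of its group for Zfp36l1, Elavl1 and Hnrnpd in 12 of 12 groups, for Khsrp and Zfp36l2 in 11, for Zfp36 in 5 and for Pum2 in 2. The changes at 120 min and the half-lives are therefore also given without these 12 libraries. The stem cell markers were present in all groups, with 0 of 8 at 0 and a summed level of 2623 to 3320 CPM (counts scaled to the library total) in the mock libraries. Skiv2l, counted over the whole gene although the loxP sites flank only some exons, had 4150, 4136 and 4205 normalised counts in 5F at day 0 and 4415, 3825 and 4162 at labelled day 4 (log2 change −0.01 ± 0.050, adjusted p = 0.914), so the libraries labelled day 4 of 5F showed no fall of this gene. In 7E it was 968, 1038 and 903 at day 0 and 406, 389 and 368 at labelled day 4 (−1.32 ± 0.074, adjusted p = 7.9e-13). Aven was 1004, 1012 and 998 in 5F and 56.6, 86.0 and 58.1 in 7E at day 0. Errors of log2 changes are standard errors, and adjusted p-values are from the quasi-likelihood test of edgeR over all genes tested with the Benjamini-Hochberg method and a threshold of 0.05 unless another tool is named.

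In the mock cells, Pum2 and Khsrp were the most abundant of these mRNAs per length and Zfp36 the least. Levels given as counts per kb of exon and per library total, on the scale of CPM, were 44.4 ± 1.1 (SD, n = 3) for Pum2 and 43.3 ± 3.0 for Khsrp in 5F at day 0, which did not differ beyond their spread. Hnrnpd had 23.9 ± 0.69 and Elavl1 21.9 ± 0.24. The Zfp36 family was lower, at 12.0 ± 0.80 for Zfp36l1, 6.73 ± 0.89 for Zfp36l2 and 2.53 ± 0.055 for Zfp36 on the same scale. The order within the family was the same in each of the 4 states. In the 3 other states all Khsrp libraries lay above all Pum2 libraries, as at labelled day 4, with 53.2 ± 1.3 against 42.8 ± 0.69 in 5F and 51.7 ± 4.9 against 42.3 ± 2.0 in 7E. The libraries do not keep the strand, and 6 of the 7 genes (all but Pum2) share between 63 and 1672 exon bases with a gene on the opposite strand. Ccl25, which shares 204 bases with Elavl1, had a mean of 325 mock counts, and the others measured had at most 7.

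After actinomycin D, the mRNAs of the Zfp36 family and Pum2 fell fast, whereas Elavl1, Hnrnpd and Khsrp fell slowly. At 120 min in 5F at day 0, 6 of the 7 were called lower than in mock, where 77.3% of 17838 genes were called (77.2% lower), and the median change of all genes was −0.80 on the log2 scale. In 7E at day 0 it was again 6 of 7, where 82.6% of 17119 genes were called (82.5% lower), with a median of −0.79. A share near the background says little about these mRNAs, so the sizes of their falls are given below. Without the 12 libraries that stand apart, 7 of 7 were called in each clone. In that run 13582 of 18691 genes were called in 5F and 14363 of 17571 in 7E. Both tests use counts scaled within each time point and then by 1 spike-in factor per time, which was 0.657 at 120 min, 0.538 at 240 min and 0.441 at 360 min relative to mock.

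Zfp36, the gene for tristetraprolin, fell furthest. In 5F at day 0 it had 246, 252 and 245 normalised counts in the mock libraries, 13.6 and 17.7 at 120 min, 6.80, 7.13 and 12.5 at 240 min and 10.0, 4.92 and 4.05 at 360 min. The treated libraries were all far below the mock libraries, with no overlap. This left 6.30% of the mock mean at 120 min (log2 change −3.98 ± 0.25, adjusted p = 5.6e-09). In 7E at day 0 it went from 259, 289 and 227 to 27.3, 22.0 and 27.6 at 120 min, or 9.92% (−3.33 ± 0.15, adjusted p = 6.4e-12). After 120 min its curve flattened: in 5F at day 0 the mean changed by −3.91 on the log2 scale over the first 120 min, by −0.76 over the next and by −0.42 over the last. Zfp36 rested on only 9 to 51 raw counts per treated library, which limits the precision of the late time points.

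Zfp36l2 fell to between 14.3% and 18.1% of mock at 120 min in the 4 states. In 5F at day 0 it had 593, 763 and 655 normalised counts in mock, 106 and 136 at 120 min, 50.0, 35.1 and 47.8 at 240 min and 29.6, 29.0 and 23.9 at 360 min. Each time point lay below the one before it with no overlap, down to 4.10% ± 0.47 of mock. The log2 change at 120 min was −2.47 ± 0.16 in 5F (adjusted p = 6.1e-09) and −2.46 ± 0.18 in 7E (adjusted p = 1.9e-09).

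Zfp36l1 fell less than its relatives. It had 994, 1075 and 955 normalised counts in mock of 5F at day 0, 417 and 530 at 120 min, 339, 165 and 277 at 240 min and 203, 216 and 158 at 360 min. All treated libraries lay below mock, and the low value at 240 min was from a library that stands apart. The log2 change at 120 min was −1.09 ± 0.22 in 5F (adjusted p = 3.9e-04) and −1.27 ± 0.17 in 7E (adjusted p = 3.1e-06).

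Pum2 fell at an even pace with the least spread between libraries. In 5F at day 0 it had 9337, 8869 and 9060 normalised counts in mock, 4327 and 4214 at 120 min, 2094, 2257 and 2125 at 240 min and 1028, 1109 and 958 at 360 min. No time point overlapped another. The libraries that stand apart were the highest for Pum2 at 120 and 240 min (4327 and 2257) and the lowest at 360 min (958), each near the others of its group. The mean changed by −1.09, −0.98 and −1.06 on the log2 scale over the 3 intervals of 120 min. The test at 120 min gave −1.09 ± 0.072 in 5F (adjusted p = 8.5e-09) and −1.04 ± 0.057 in 7E (adjusted p = 7.9e-11).

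Elavl1, the stabilising member, kept a larger share of its level than the other 6 at 240 and 360 min in each of the 4 states, while at 120 min Khsrp (76.4% of mock in 5F) and Hnrnpd (79.0% in 7E) were above it at day 0 (75.5% and 76.9%). In 7E at labelled day 4, Elavl1 led Khsrp only within the spread, with 60.8% ± 6.4 against 59.9% ± 5.3 at 240 min and 49.1% ± 5.6 against 48.6% ± 9.9 at 360 min. It had 6357, 6447 and 6407 normalised counts in mock of 5F at day 0, 4562 and 5104 at 120 min, 4686, 3622 and 4556 at 240 min and 3810, 3879 and 3464 at 360 min. Treated libraries lay below mock without overlap, at 58.1% ± 3.5 of mock at 360 min. The log2 change at 120 min was −0.41 ± 0.098 in 5F (adjusted p = 0.00187) and −0.38 ± 0.093 in 7E (adjusted p = 0.0014). In 5F it was no longer called without replicate 1 (−0.33, adjusted p = 0.0621), and with each library's own spike-ins it was called in neither clone (adjusted p = 0.208 and 0.0609).

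Khsrp and Hnrnpd behaved alike in size, with more spread. Khsrp had 5050, 5665 and 5119 normalised counts in mock of 5F at day 0, 3664 and 4398 at 120 min, 4124, 2300 and 3322 at 240 min and 2802, 2746 and 2438 at 360 min. Hnrnpd had 5003, 4762 and 5094 in mock, 3285 and 4054 at 120 min, 3512, 2025 and 3513 at 240 min and 2339, 2767 and 2141 at 360 min. Both had a clear gap between mock and 360 min, where 50.4% ± 3.7 and 48.8% ± 6.5 of mock remained, and the lowest library at 120 and 240 min was the one that stands apart. Khsrp changed by −0.39 ± 0.17 at 120 min in 5F (adjusted p = 0.0507, not called) and by −0.39 ± 0.13 in 7E (adjusted p = 0.0139). In 5F it was called without the 12 libraries (−0.26, adjusted p = 0.0128) and with DESeq2 (adjusted p = 0.0258), and in 7E its call was lost without replicate 3 (adjusted p = 0.0504) and with own spike-ins (adjusted p = 0.119). Hnrnpd changed by −0.43 ± 0.19 in 5F (adjusted p = 0.0468) and by −0.34 ± 0.20 in 7E (adjusted p = 0.125, not called), where its libraries at 120 min, 3758, 4526 and 6060, overlapped the mock libraries of 6576, 5885 and 5707. Its call in 5F was lost without replicate 1 (−0.28, adjusted p = 0.356), without replicate 3 (−0.57, adjusted p = 0.0911), with DESeq2 (adjusted p = 0.0862) and with each library's own spike-ins (adjusted p = 0.339), and in 7E it was called without the 12 libraries (−0.19, adjusted p = 0.0391) and without replicate 3 (−0.59, adjusted p = 0.0327) and was −0.13 without replicate 1 (adjusted p = 0.631). For the other 5 genes the changes without the 12 libraries in 5F and 7E were −3.80 and −3.38 for Zfp36, −2.31 in each for Zfp36l2, −0.93 and −1.11 for Zfp36l1, −1.11 and −1.02 for Pum2 and −0.33 and −0.31 for Elavl1, and all of them were called.

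**Figure D1:**
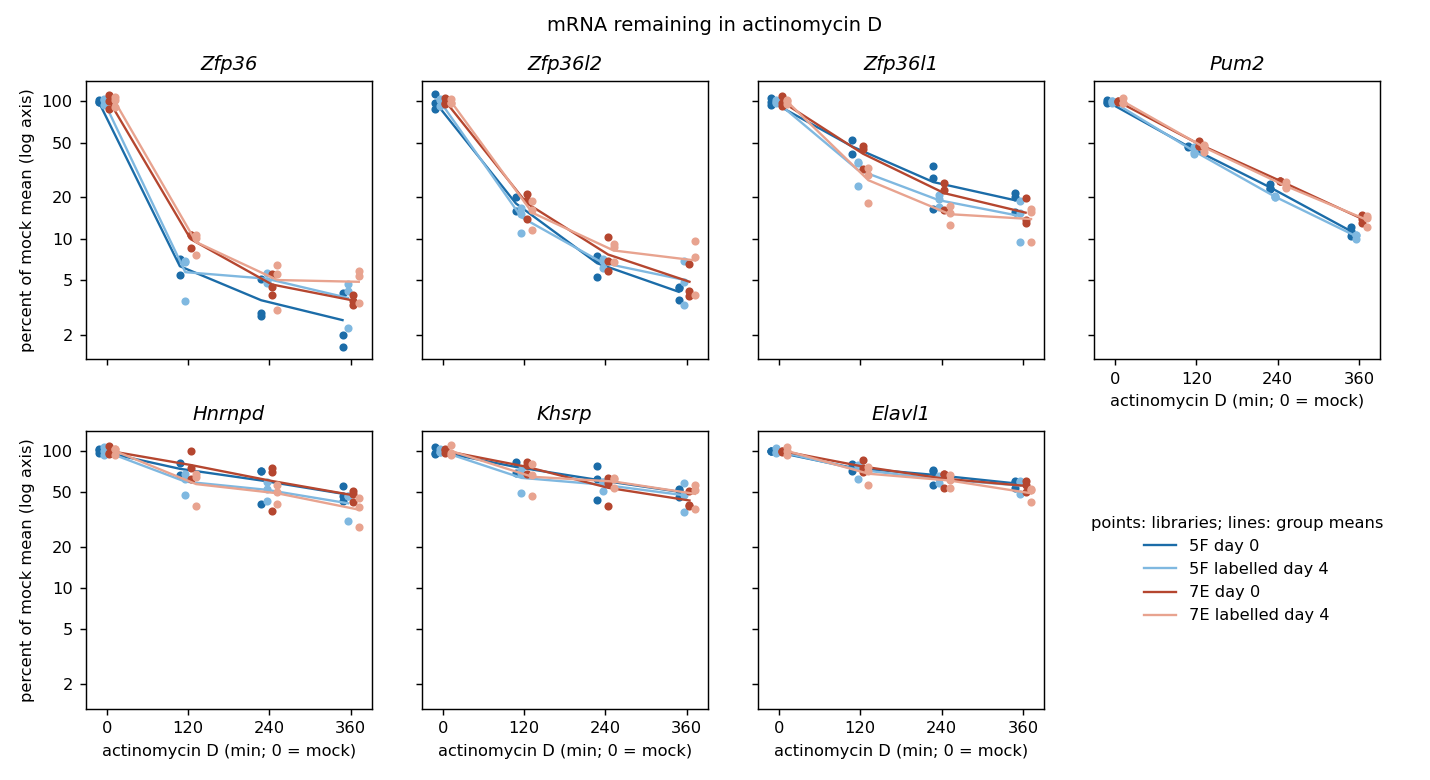
mRNA remaining in actinomycin D. The y axis gives normalised counts as percent of the mock mean of the same clone and day on a log axis, the x axis minutes of actinomycin D (0 is mock, points shifted sideways by state), points are libraries and lines join group means. In 5F at day 0, Zfp36 falls to 6.30% by 120 min and then flattens, Pum2 follows a straight line to 11.3% at 360 min, and Elavl1, Hnrnpd and Khsrp stay above 48% on average.

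Half-lives summarise these curves. Each was −ln(2) divided by the slope of ln(normalised count + 1) on time, over the 11 or 12 libraries of a clone and day, and the range in brackets is that of the slope ± 1 standard error. In 5F at day 0 the half-life was 71.5 min (61.7 to 85.0) for Zfp36, 78.5 min (72.0 to 86.3) for Zfp36l2, 115 min (113 to 117) for Pum2 and 147 min (132 to 166) for Zfp36l1. Hnrnpd had 346 min (291 to 426), Khsrp 361 min (307 to 439) and Elavl1 467 min (414 to 536). The ranges of Zfp36 and Zfp36l2 overlapped, as did those of Hnrnpd, Khsrp and Elavl1, whereas Pum2 and Zfp36l1 did not overlap. Among 10492 protein-coding genes with a mock mean of at least 100 normalised counts, whose median was 280 min, 1.20% had a shorter half-life than Zfp36, 2.12% than Zfp36l2, 9.85% than Pum2 and 18.1% than Zfp36l1, against 62.1% for Hnrnpd, 64.5% for Khsrp and 78.5% for Elavl1.

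The split into 4 short-lived and 3 long-lived mRNAs was the same in all 4 states. Over the states, half-lives were 71.5 to 86.7 min for Zfp36, 78.5 to 95.0 min for Zfp36l2, 110 to 128 min for Pum2, 127 to 147 min for Zfp36l1, 264 to 346 min for Hnrnpd, 289 to 369 min for Khsrp and 369 to 467 min for Elavl1. The line fitted Pum2 closely, with R² between 0.990 and 0.998, and Zfp36 less well, with R² between 0.685 and 0.827. Mock and 120 min alone gave shorter values over the 4 states, between 29.3 and 36.5 min for Zfp36, 42.7 and 48.7 min for Zfp36l2, 61.6 and 109 min for Zfp36l1, 143 and 328 min for Hnrnpd, 178 and 308 min for Khsrp and 214 and 313 min for Elavl1, except for Khsrp in 7E at day 0 (308 against 289 min). Pum2 then had 100.0 to 116 min, and Zfp36l1 was shorter than Pum2 in each of the 4 states. Without the 12 libraries, half-lives over the 4 states were 69.8 to 83.8 min for Zfp36, 77.8 to 97.5 min for Zfp36l2, 109 to 129 min for Pum2, 130 to 156 min for Zfp36l1, 289 to 392 min for Hnrnpd, 312 to 408 min for Khsrp and 393 to 499 min for Elavl1. In 7E at labelled day 4 Khsrp then had 408 min and Elavl1 393 min, where all libraries gave 369 min for each.

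**Figure D2:**
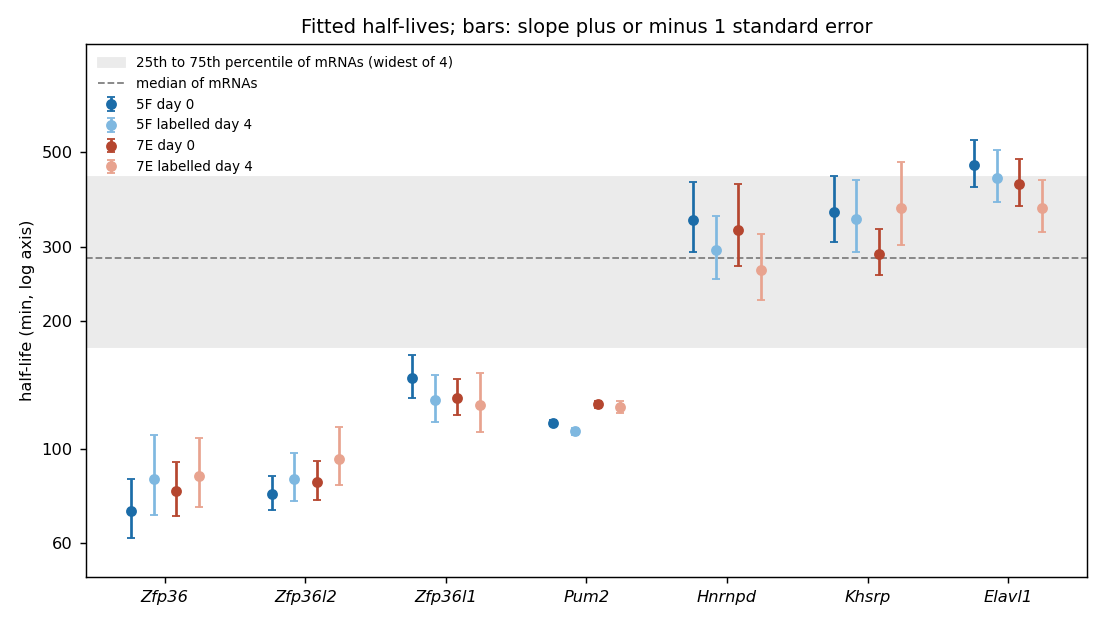
Fitted half-lives of the RNA-binding protein mRNAs. The y axis gives the half-life in minutes on a log axis, each point is a clone and day, bars span the slope ± 1 standard error, the grey band spans the 25th to 75th percentile of all protein-coding genes with at least 100 mock counts (the widest of the 4 states) and the dashed line is their median. Zfp36, Zfp36l2, Zfp36l1 and Pum2 lie below the band in each state, and Hnrnpd, Khsrp and Elavl1 lie in or above it.

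The 4OHT comparison in 5F asks how the cells change when CreERT2 is active in a line with AVEN. Khsrp, Hnrnpd and Zfp36l1 were higher at labelled day 4, and the other 4 were not called: 3 of 7 were higher and 0 lower, where 24.5% of 16354 genes were called (12.8% higher, 11.6% lower). Khsrp rose from 5050, 5665 and 5119 normalised counts to 6571, 6556 and 6828 (log2 change 0.33 ± 0.048, adjusted p = 3.4e-05). Hnrnpd rose from 5003, 4762 and 5094 to 5793, 6525 and 6155 (0.31 ± 0.049, adjusted p = 7.5e-05). Zfp36l1 rose from 994, 1075 and 955 to 1226, 1253 and 1290 (0.32 ± 0.059, adjusted p = 5.1e-04). For each of these 3 genes the groups did not overlap, and the calls held with every alternative run. The share of all genes without overlap was not counted in any comparison, so a lack of overlap only describes the libraries. Zfp36l2 went from 593, 763 and 655 to 690, 769 and 785, with overlap (0.15 ± 0.081, adjusted p = 0.178), and was called only without replicate 2 (0.24, adjusted p = 0.0183). Zfp36 (0.07 ± 0.089), Elavl1 (−0.01 ± 0.044) and Pum2 (−0.02 ± 0.043) overlapped between the groups, with adjusted p between 0.602 and 0.937.

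In 7E, the line without AVEN, the same 3 genes and Zfp36 were called higher at labelled day 4 relative to the other genes (with own spike-ins all were lower, as the spike-in values show): 4 of 7, where 40.1% of 16333 genes were called (20.7% higher, 19.4% lower). Zfp36l1 rose from 1221, 1439 and 1278 normalised counts to 1613, 1530 and 1645 without overlap (0.28 ± 0.063, adjusted p = 9.0e-04). Hnrnpd went from 6576, 5885 and 5707 to 6431, 7011 and 7084 (0.18 ± 0.054, adjusted p = 0.0115), and Khsrp from 5627, 6025 and 5929 to 6363, 6145 and 7354 (0.18 ± 0.056, adjusted p = 0.015). Hnrnpd overlapped between the groups and Khsrp did not. Zfp36 went from 259, 289 and 227 to 317, 331 and 282, with overlap (0.26 ± 0.10, adjusted p = 0.0460). These calls were less firm than in 5F. Zfp36 was lost without each replicate, at values of 0.24 to 0.30 (adjusted p between 0.0609 and 0.208), with TMM scaling (0.25, adjusted p = 0.0530) and with DESeq2 (0.26, adjusted p = 0.0865), so its size changed little. Zfp36l1 was lost without replicate 1 (0.22, adjusted p = 0.0541). Hnrnpd was lost without replicate 2 (0.14, adjusted p = 0.0904) or 3 (0.11, adjusted p = 0.129), and Khsrp without replicate 1 (0.18, adjusted p = 0.105) or 3 (0.10, adjusted p = 0.142). Elavl1 (0.06 ± 0.048), Zfp36l2 (0.05 ± 0.068) and Pum2 (−0.03 ± 0.046) were not called.

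These values are relative to the other genes of the same library. ERCC spike-ins made up 0.640% to 0.659% of counts in the mock libraries of 7E at labelled day 4 and 0.310% to 0.320% at day 0. With each library's own spike-ins the median of all genes in 7E moved to −1.11 on the log2 scale, 244 genes were called higher and 15046 lower in place of 3381 and 3170, and the 7 mRNAs lay between −0.82 and −1.13. Relative to that median they were −0.02 for Pum2, 0.06 for Zfp36l2, 0.07 for Elavl1, 0.19 for Khsrp, 0.19 for Hnrnpd, 0.27 for Zfp36 and 0.29 for Zfp36l1. Fewer cells and less RNA per cell cannot be told apart in such bulk samples. In 5F the median moved by less, to −0.07, with 1063 genes higher and 2347 lower in place of 2099 and 1903, and the same 3 calls were made. Cell type markers also moved, where 24.5% of all genes were called in 5F and 40.1% in 7E. In 5F 3 of 6 primitive endoderm markers were lower at labelled day 4 (summed level 127 to 131 CPM at day 0, 98.1 to 102 at labelled day 4), as were 2 of 5 primed markers. Of 8 stem cell markers in 5F, 2 were higher and 3 lower. In 7E 7 of 8 stem cell markers were lower (3116 to 3218, then 2623 to 2701), as were 4 of 5 primed markers (132 to 134, then 80.1 to 94.8), and 1 of 6 primitive endoderm markers was higher. Of the fibroblast markers, 2 of 4 tested were higher at labelled day 4 in 5F and 3 of 4 in 7E, on a summed level of 2.27 to 9.27 CPM in all mock libraries, with Postn at 0 in 5F at labelled day 4 and in 7E at day 0. The part of these cells in the results was not tested.

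The response to 4OHT itself was compared between the clones, and 0 of 7 were called different, where 11.9% of 17187 genes were called (6.64% higher, 5.29% lower). The differences in the log2 response (7E minus 5F) ran from −0.16 ± 0.080 for Khsrp (adjusted p = 0.234) to 0.19 ± 0.13 for Zfp36 (adjusted p = 0.430). Khsrp and Hnrnpd had unadjusted p of 0.0621 and 0.0868 in this edgeR fit, DESeq2 also called 0 of 7, and with each library's own spike-ins 7 of 7 were called lower, with the median of all genes at −1.03. On the scale relative to the other genes, a smaller response in 7E is therefore not shown for Khsrp, Hnrnpd or Zfp36l1.

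The clones themselves differed before 4OHT. Skiv2l was already lower in 7E than in 5F at day 0 (log2 change −2.10 ± 0.050, adjusted p = 9.7e-20). The day 0 comparisons of the clones, of level and of decay, are therefore not of AVEN alone. Elavl1, Zfp36l1, Hnrnpd and Khsrp were higher in 7E than in 5F at day 0: 4 of 7, where 39.8% of 16257 genes were called (20.1% higher, 19.8% lower). Elavl1 was tightest, at 6357, 6447 and 6407 normalised counts in 5F and 7839, 7967 and 7962 in 7E (0.31 ± 0.038, adjusted p = 5.3e-07). Zfp36l1 was 994, 1075 and 955 against 1221, 1439 and 1278 (0.38 ± 0.063, adjusted p = 3.2e-05), and Hnrnpd 5003, 4762 and 5094 against 6576, 5885 and 5707 (0.29 ± 0.048, adjusted p = 3.0e-05). For these 3 genes the clones did not overlap. Khsrp, at 5050, 5665 and 5119 against 5627, 6025 and 5929, did (0.15 ± 0.046, adjusted p = 0.0109), and its call was lost without replicate 1 (0.15, adjusted p = 0.0718), without replicate 3 (0.12, adjusted p = 0.172) and with each library's own spike-ins (−0.01, adjusted p = 0.892). Pum2 (0.04 ± 0.038), Zfp36 (0.06 ± 0.096) and Zfp36l2 (0.02 ± 0.077) were not called. With a block for the replicate number, 4 of 7 were again called higher, where 8106 of 16257 genes were called (4024 higher, 4082 lower). Khsrp was then 0.15 ± 0.024 (adjusted p = 2.2e-08). With own spike-ins the median of all genes moved to −0.17, 1619 genes were called higher and 6299 lower in place of 3260 and 3215, and Pum2 was called lower at −0.12 (adjusted p = 0.0424), which is 0.04 above that median. Primitive endoderm markers moved with the clone: 6 of 6 were lower in 7E (summed level 127 to 131 CPM in 5F, 13.0 to 13.7 in 7E), and 3 of 5 primed markers were higher (69.6 to 72.1, then 132 to 134). Of the fibroblast markers, 3 of 4 tested were lower in 7E (summed level 5.61 to 6.43, then 2.27 to 2.79), and of 8 stem cell markers 3 were higher and 3 lower. Their part in the clone difference was not tested.

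**Figure D3:**
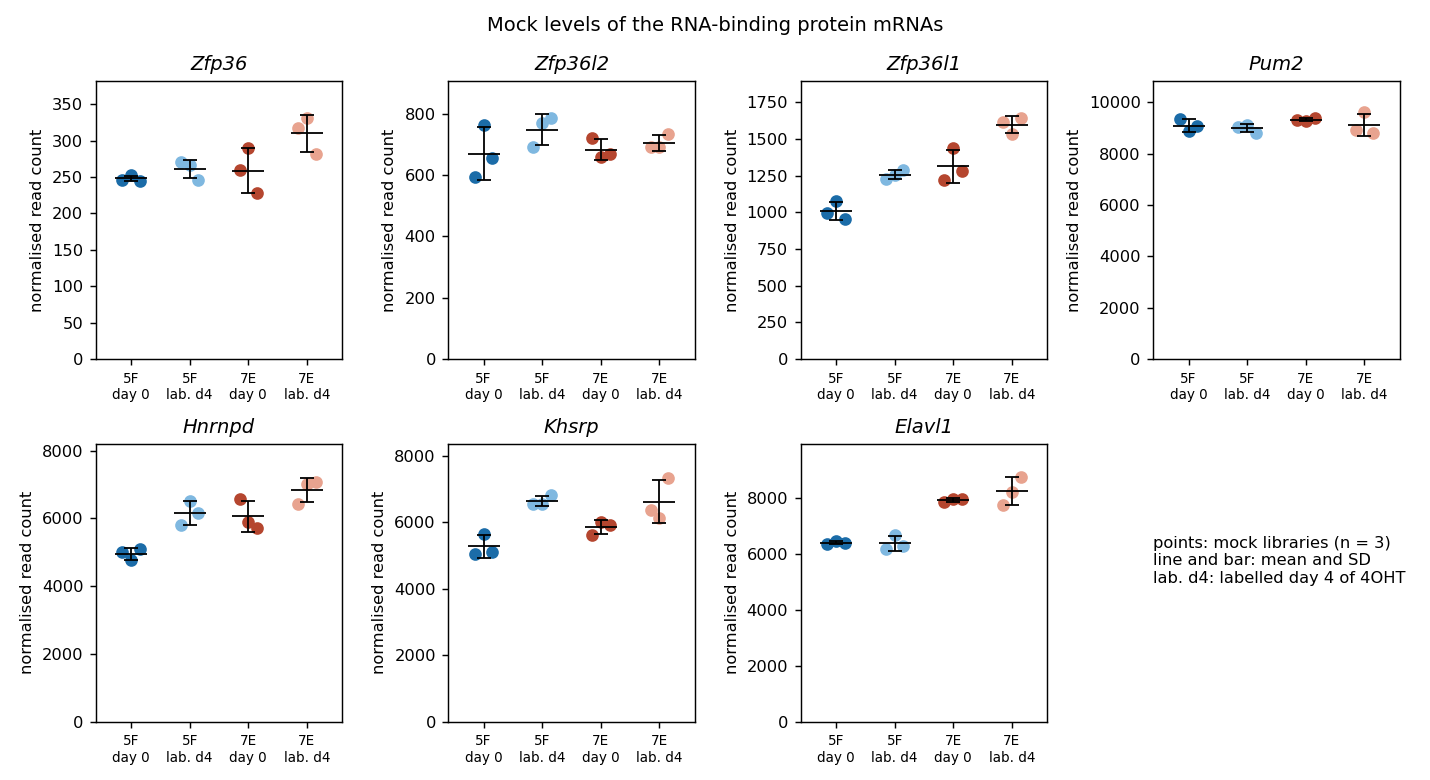
Mock levels of the RNA-binding protein mRNAs. The y axis gives normalised read counts from 0, the x axis the 4 states (lab. d4 is labelled day 4), points are the 3 mock libraries of a state, and the line and bar are their mean and SD. All Elavl1 libraries of 7E lie above all of 5F, Khsrp and Hnrnpd are higher at labelled day 4 than at day 0 in 5F without overlap, and Pum2 overlaps between the states.

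The decay comparisons ask whether the slope of the log2 level on time differs, and a positive value in log2 per hour means slower decay in the state named first. For labelled day 4 against day 0, 0 of 7 were called in 5F, where 0.192% of 19245 genes were called (0.13% slower, 0.0624% faster), and 0 of 7 in 7E, where 0.906% of 18541 were (0.41% slower, 0.496% faster). In 5F the values ran from −0.05 ± 0.064 log2 per hour for Zfp36l1 to 0.12 ± 0.17 for Zfp36, with Pum2 at −0.02 ± 0.015. In 7E they ran from −0.05 ± 0.050 for Hnrnpd to 0.09 ± 0.14 for Zfp36, with Pum2 at −0.01 ± 0.018. Unadjusted p from edgeR was at least 0.118 for each of the 7 in each clone, and DESeq2 called 0 of 7 in both. The clone difference in this change was likewise called for 0 of 7, where 0% of 20101 genes were called by edgeR (573 had an unadjusted p under 0.05, and DESeq2 called 3). With mock and 120 min alone, Zfp36l1 was −0.28 ± 0.090 in 5F (adjusted p = 0.416) and −0.32 ± 0.12 in 7E (adjusted p = 0.219), Hnrnpd was −0.16 and −0.23, and 0 of 7 were called in each clone. Without the 12 libraries 0 of 7 were called in each of these comparisons, and Pum2 in 5F was −0.03 (unadjusted p = 0.0457, adjusted p = 1.00). Precision differed between the genes, as the standard error in 5F was 0.015 log2 per hour for Pum2 and 0.17 for Zfp36.

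Between the clones at day 0, 0 of 7 differed in decay in the fit without pairing, where 0.0375% of 18674 genes were called (0.0321% slower, 0.00536% faster). Pum2 came nearest, at 0.05 ± 0.014 log2 per hour slower in 7E (unadjusted p = 0.00107, adjusted p = 0.377), and DESeq2 called it (0.05, adjusted p = 0.0453). At day 0 the same-numbered libraries of the clones deviated together (11 of 11 correlations above 0.1), so the fit was repeated with a replicate block within each time point, an alternative chosen after seeing the data. The block also fits a level for each time and replicate in place of a straight line over time. The effects of pairing and of dropping the line cannot be told apart. With this block 1742 of 18674 genes were called (1125 slower, 617 faster) in place of 7, and 2 of 7 members: Pum2 at 0.05 ± 0.0074 (adjusted p = 7.3e-05) and Khsrp, faster in 7E, at −0.04 (adjusted p = 0.00916, against −0.04 ± 0.035 and an adjusted p of 1.00 without the block). Zfp36l1 (adjusted p = 0.0792) and the other 4 were not called with it.

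Pum2 showed the difference in its library values. In 7E at day 0 it had 9312, 9254 and 9387 normalised counts in mock, 4428, 4400 and 4809 at 120 min, 2462, 2462 and 2437 at 240 min and 1294, 1395 and 1221 at 360 min. The mock libraries overlapped those of 5F, and at 120, 240 and 360 min all libraries of 7E lay above all of 5F. The log2 ratio of 7E to 5F in same-numbered libraries was 0.04 ± 0.035 (SD, n = 3) in mock, 0.11 ± 0.11 at 120 min (n = 2), 0.19 ± 0.055 at 240 min and 0.34 ± 0.011 at 360 min. At labelled day 4, in other libraries of the same clones, the 5F libraries at 360 min had 951, 891 and 959 and the 7E libraries 1298, 1107 and 1333, again without overlap. The half-life was 110 min (108 to 112) in 5F and 126 min (122 to 130) in 7E. With the same clones, this is not an independent test. The 10th percentile of half-lives over the protein-coding genes was 116 min in 5F and 126 min in 7E at day 0, and 121 and 133 min at labelled day 4. Shorter half-lives than that of Pum2 were found for 9.85% of these genes in 5F and 10.4% in 7E at day 0, and for 7.59% and 8.46% at labelled day 4. A difference particular to Pum2 is therefore not shown. For Khsrp the ratio at day 0 went from 0.15 ± 0.062 in mock to 0.13 ± 0.014 at 120 min, −0.03 ± 0.11 at 240 min and −0.07 ± 0.16 at 360 min. At labelled day 4 it stayed between −0.01 and 0.07 at all times, and the half-life of Khsrp was 348 min (292 to 429) in 5F and 369 min (302 to 474) in 7E, so the day 0 pattern of Khsrp was not seen there.

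**Figure D4:**
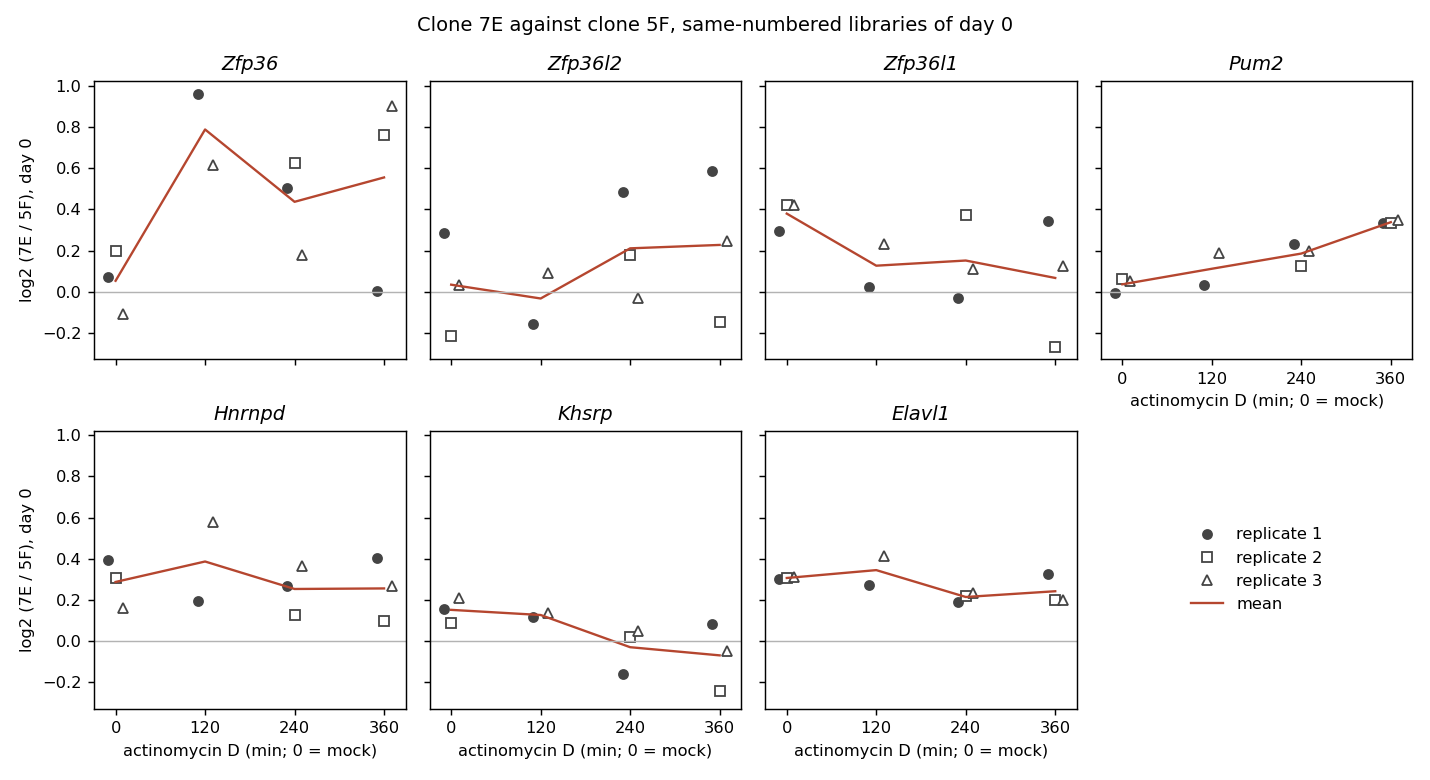
Clone 7E against clone 5F at day 0. The y axis gives the log2 ratio of normalised counts in same-numbered libraries, the x axis minutes of actinomycin D (0 is mock, points shifted sideways by replicate), symbols are replicates (2 at 120 min) and the line joins their means. The ratio of Pum2 rises from 0.04 to 0.34, that of Khsrp goes from 0.15 to −0.07, and that of Elavl1 stays between 0.21 and 0.35.

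Relative binding shows which decay factor each mRNA leaned to. Per the methods, the counts of each protein were first scaled to the same total, so a ratio does not compare amounts bound. XRN1 is the cytoplasmic exonuclease that degrades from the 5′ end, SKIV2L feeds the cytoplasmic exosome at the 3′ end, and MTR4 is the helicase of the nuclear exosome. The authors pooled the CRAC libraries of each protein, so the values have no replicate error and no test, and the ratios to MTR4, SKIV2L and XRN1 sum to 1 for each mRNA. The Zfp36 and Zfp36l2 mRNAs leaned to XRN1 and away from SKIV2L. Zfp36l2 had 0.518 for XRN1, above 85.2% of the 7240 mRNAs, 0.326 for MTR4 and 0.155 for SKIV2L, above 20.4%. Zfp36 had 0.447 for XRN1 (above 73.4%), 0.404 for MTR4 and 0.148 for SKIV2L (above 18.5%), on an RPKM of 1.59 to 2.95 in the tagged lines. The medians of all mRNAs were 0.337 for XRN1, 0.319 for MTR4 and 0.267 for SKIV2L.

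Hnrnpd and Khsrp leaned to SKIV2L and away from MTR4. Hnrnpd had 0.493 for SKIV2L (above 87.3% of mRNAs), 0.327 for XRN1 and 0.181 for MTR4 (above 13.6%), and Khsrp had 0.447 for SKIV2L (above 82.3%), 0.381 for XRN1 and 0.172 for MTR4 (above 11.7%). SKIV2L was the highest of the 3 proteins for only 26.5% of all mRNAs, and MTR4 for 35.4% and XRN1 for 38.1%. Pum2 leaned to MTR4, with 0.479 (above 77.1%) against 0.261 for XRN1 and 0.260 for SKIV2L. Zfp36l1, with 0.390 for MTR4, 0.356 for XRN1 and 0.254 for SKIV2L, and Elavl1, with 0.385 for XRN1, 0.318 for MTR4 and 0.297 for SKIV2L, lay near the medians. AVEN, which was scaled apart from the other 3, had 0.511 for Khsrp (above 88.7%) and 0.421 for Zfp36l1 (above 77.9%), 0.275 for Hnrnpd, 0.237 for Elavl1, 0.208 for Zfp36l2 and 0.207 for Pum2, where the median was 0.295. For Zfp36 it is listed at 0, as for 33 of 7240 mRNAs.

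A further score of the table scales each ratio by the RNA level in that tagged line relative to the median of the 3 lines. With it the protein of highest value stayed the same for 7 of 7. Hnrnpd rose to 0.773 for SKIV2L, above 99.6% of mRNAs, as its RPKM was 27.7 in the SKIV2L line and 46.2 and 43.4 in the MTR4 and XRN1 lines. Zfp36 fell to 0.232 for MTR4, above 26.6% of mRNAs in place of 67.0%, with 2.95 RPKM in the MTR4 line against 1.69 and 1.59 in the others.

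**Figure D5:**
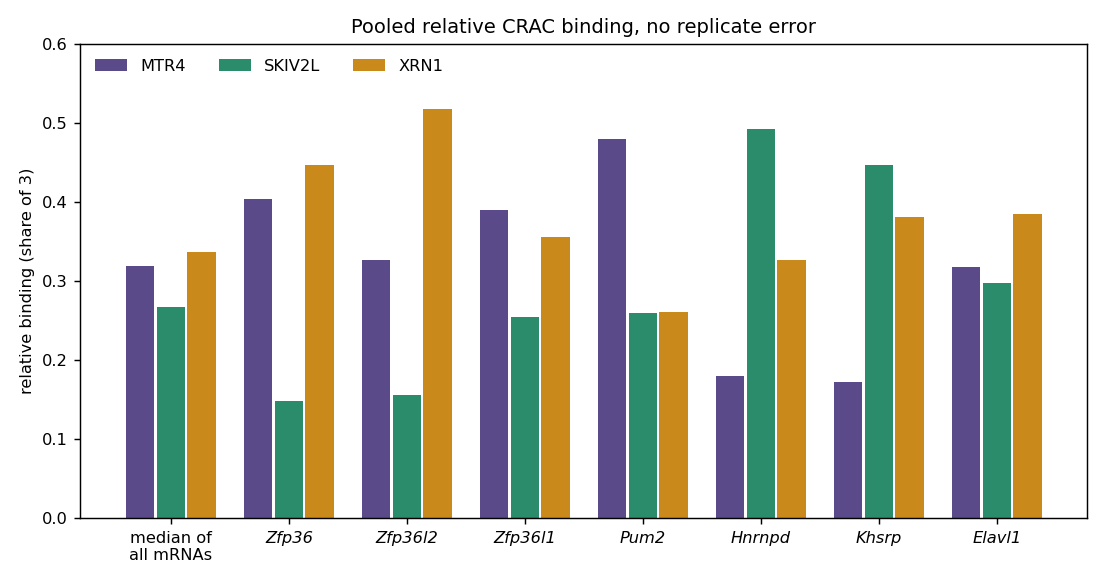
Relative CRAC binding of the RNA-binding protein mRNAs. The y axis gives the pooled ratio to each protein, which sums to 1 over MTR4, SKIV2L and XRN1 for each mRNA, and the bars at the left are the medians of all 7240 mRNAs. XRN1 is highest for Zfp36, Zfp36l2 and Elavl1, SKIV2L for Hnrnpd and Khsrp, and MTR4 for Zfp36l1 and Pum2.

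Genes whose levels followed each mRNA most closely over the 47 libraries were sought among 10593 genes by Pearson's r of log2(normalised count + 1). Since the time in actinomycin D sets most of this variation, the median r over all genes was already between 0.786 and 0.903, and the values are a description. Closest to Zfp36 were Ppp1r26, Zbtb5 and Zswim3 (r between 0.982 and 0.985), and closest to Zfp36l2 were Zfp296, Phf12 and Ube2o (0.993 to 0.995). Foxo1, Ahdc1 and Taf4 (0.987 to 0.988) were closest to Zfp36l1, and Sirt1, Spin1 and Tbk1 (0.997 each) to Pum2. Smap1 and Ywhab (0.986 and 0.982) lay near Elavl1, Hsp90ab1, Gar1 and Rbm33 (0.977 to 0.980) nearest Hnrnpd, and Nav2, Tsc2 and Nup188 (0.980 to 0.985) nearest Khsrp.

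Beside these 7, 3 fixed lists describe the pathway around them: 36 related RNA-binding proteins, 14 subunits of CCR4-NOT and its TOB/BTG partners, and 25 textbook mRNAs with AU-rich elements, of which 21 to 23 were tested. The AU-rich mRNAs fell fast: 21 of 21 tested were lower at 120 min in each clone at day 0, where 77.2% of all genes in 5F and 82.5% in 7E were called lower, with a median log2 change of −2.55 in 5F and −2.36 in 7E, beside −0.80 and −0.79 over all genes. These shares of all genes also stand beside the counts of the next lists. Dusp1, which encodes a MAP kinase phosphatase, changed by −4.80 ± 0.28 in 5F and −4.61 ± 0.14 in 7E, and Jun, an AP-1 subunit, by −3.98 ± 0.16 in 5F. Klf2, a transcription factor, changed by −3.05 ± 0.086 in 7E. Of CCR4-NOT and its partners 14 of 14 fell in each clone, with medians of −0.94 and −0.90, among them the anti-proliferative genes Tob1 (−2.90 ± 0.19 in 5F, −2.55 ± 0.10 in 7E) and Btg1 (−2.55 ± 0.15 and −2.45 ± 0.11). The related RNA-binding proteins fell less, 34 of 36 in 5F and 33 of 36 in 7E with a median of −0.56 in each, and among them were Zc3h12a, the endonuclease Regnase-1 (−2.10 ± 0.18 and −2.59 ± 0.13), and Nanos1, a partner of Pumilio proteins (−2.05 ± 0.18 and −1.86 ± 0.12).

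In mock cells, on the scale relative to the other genes of a library, 10 of 21 AU-rich mRNAs were higher and 1 lower at labelled day 4 in 5F (24.5% of all genes were called), with a median of 0.25 and Jun at 0.64 ± 0.077 and Junb at 0.59 ± 0.080. The lower gene was Ccnd1, cyclin D1 (−0.24 ± 0.042). In 7E, 13 of 22 were higher and 1 lower (40.1% of all genes were called), with a median of 0.35. Ptgs2, cyclooxygenase-2, rose by 2.37 ± 0.11, Jun by 1.36 ± 0.073, and Ccnd1 fell by 0.67 on the log2 scale. The related RNA-binding proteins went both ways, with 9 higher and 5 lower of 36 in 5F and 9 higher and 11 lower in 7E. Cpeb1, a cytoplasmic polyadenylation factor, rose in both (0.86 ± 0.12 and 1.54 ± 0.12), Fubp1, a relative of Khsrp, was lower in 5F (−0.41 ± 0.042), and Samd4 was higher (1.39 ± 0.094) and Msi1 lower (−1.11 ± 0.11) in 7E. Of CCR4-NOT and its partners, 3 were higher and 1 lower of 14 in 5F and 1 higher and 4 lower in 7E, with Cnot3 at 0.31 ± 0.058 in 5F and Btg2 at 0.63 ± 0.055 and Tob1 at −0.63 ± 0.078 in 7E.

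Between the clones at day 0, 7 of 14 CCR4-NOT genes and partners were higher in 7E and 0 lower (39.8% of all genes were called), among them Cnot1, the scaffold of the complex (0.61 ± 0.038, adjusted p = 5.4e-12), and Btg1 (0.45 ± 0.069). With each library's own spike-ins the median of all genes was 0.17 lower, as given above. The related RNA-binding proteins had 10 higher and 9 lower of 36, with Msi1 at 1.28 ± 0.12 and Samd4 at −1.08 ± 0.089, and the AU-rich mRNAs 8 higher and 10 lower of 21. The response to 4OHT differed between the clones for 4 higher and 7 lower of 36 related proteins, 1 higher and 2 lower of 14 CCR4-NOT genes, and 6 higher and 2 lower of 22 AU-rich mRNAs (11.9% of all genes were called), among them Dusp1 (0.97 ± 0.11) and Zc3h12a (−0.99 ± 0.13). In the decay comparisons 1 gene of these lists was called: Ccnd1 decayed more slowly at labelled day 4 in 7E (0.05 ± 0.011 log2 per hour, adjusted p = 0.0206). In that comparison 0.906% of 18541 genes were called (0.41% slower), so 1 call says little about these lists.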

How the data were processed

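The members and the gene lists were chosen with earlier results of these data known. The authors deposited read counts per gene from the actinomycin D RNA-seq: per the labels, RNA was depleted of rRNA and libraries were made with the TruSeq v2 kit, which does not mark strand. Per the methods, reads were mapped to mm10 (GRCm38) with STAR 2.5.0a, and unique reads were counted over Gencode genes. The authors also deposited, per mRNA, CRAC ratios from pooled libraries, RPKM of the tagged lines and a score that scales each ratio by RPKM. These values have no replicates, and their depth is unknown. Columns with the authors' fold changes, p-values and half-lives were not used.

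For scaling, median-ratio size factors were taken among the libraries of a time and multiplied by a factor common to that time, from the median ratio of protein-coding to ERCC counts (92 spike-ins, mean above 50). Comparisons used edgeR 4.0.16 (quasi-likelihood, Benjamini-Hochberg, all genes tested), with DESeq2 1.42.0 as an alternative, after filtering low counts. The procedure was also run on simulated counts drawn independently for each library. Those counts lack the deviations that libraries share here, so the run does not cover them. Gene symbols came from the annotation for 53275 of 53380 genes. Motifs were searched in the transcripts named by the table. Replicates differed beyond counting noise (chi-square per degree of freedom 2.59 to 94.0), and all 47 libraries were kept.

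Same-numbered libraries of 5F and 7E at day 0 deviated together in 11 of 11 pairs (correlations 0.116 to 0.821), so the numbers pair the clones at day 0. Between day 0 and labelled day 4 this held for 7 of 11 pairs in 5F and 6 of 12 in 7E, and those numbers were not taken as pairs. Genes named were the 7 members, Skiv2l and Aven, at most 2 called genes per direction with the largest change from each list and comparison (mean of at least 100 counts), and the 3 genes most like each member, of which 1 is not reported here.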

Additional observations from a re-analysis of the deposited data

How the results depend on the processing

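The split of the 7 mRNAs into 4 short-lived and 3 long-lived was kept in each alternative run for the half-lives, and the protein with the highest relative binding was the same for 7 of 7 with the score scaled by RPKM. Counts of called genes moved by over 1.5 times as follows. With each library's own spike-ins, 15290 genes were called for labelled day 4 in 7E (main 6551), 14401 for the clone difference in the response (2052, now 51 higher and 14350 lower), and, for decay, 19 for labelled day 4 in 5F (37), 106 in 7E (168), 2 between the clones at day 0 (7) and 1 for the clone difference in the change (0). DESeq2 gave 276, 38 and 3 for the last 3 of these decay comparisons. Mock and 120 min alone gave 65 in 5F, 31 between the clones and 15 for the clone difference. Alternatives chosen after seeing the data were leaving out the 12 libraries, with 0 between the clones and 2 for the clone difference, and a replicate block within each time point, with 118 in 5F, 804 in 7E, 1742 between the clones and 8 for the clone difference. The cause was not tested.

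With 1 replicate left out, the counts ran from 1859 to 4425 for the mock comparison in 5F (main 4002), 4320 to 5949 in 7E, 752 to 1445 for the clone difference in the response, 2 to 4 for decay in 5F, 28 to 55 in 7E and 0 to 1 between the clones. A simple replicate block gave 2963, 6012, 8106 and 1925 genes in the 4 mock comparisons and 29, 126, 7 and 0 in the 4 decay comparisons, and at 120 min it changed 1 member call, that of Khsrp in 5F (adjusted p = 0.0496).

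Values of members that changed sign are given in log2, or log2 per hour for decay. With own spike-ins they were, for labelled day 4 in 7E, Elavl1 −1.04, Khsrp −0.92, Hnrnpd −0.92, Zfp36l1 −0.82, Zfp36l2 −1.05 and Zfp36 −0.84. Between the clones they were Khsrp −0.011, Pum2 −0.12, Zfp36l2 −0.14 and Zfp36 −0.10, and for the clone difference in the response Elavl1 −0.97 and Zfp36 −0.84. For decay they were Elavl1 0.00071, Pum2 0.012 and Zfp36l1 0.0025 in 7E, and Elavl1 0.021, Hnrnpd 0.019 and Zfp36 0.019 for the clone difference. With mock and 120 min alone they were Zfp36l2 −0.16 and Zfp36 −0.065 in 5F, Khsrp −0.12, Zfp36l2 −0.12 and Zfp36 −0.035 in 7E, Elavl1 0.014, Khsrp 0.0021 and Hnrnpd 0.046 between the clones, and Zfp36l1 −0.043 and Zfp36 0.030 for the clone difference. Without the 12 libraries it was Zfp36 0.088 for the clone difference.

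With 1 replicate left out, values spanned 0 in the mock comparisons for Elavl1 (−0.037 to 0.011) and Pum2 (−0.046 to 3.3e-05) in 5F, Zfp36l2 (−0.10 to 0.16) and Zfp36 (−0.014 to 0.14) between the clones, and Pum2 (−0.033 to 0.0017) and Zfp36l1 (−0.098 to 0.014) for the clone difference. For decay they did so for Khsrp (−0.044 to 0.017) and Zfp36l2 (−0.0043 to 0.096) in 5F, Khsrp (−0.0011 to 0.075), Pum2 (−0.029 to 0.022) and Zfp36l1 (−0.076 to 0.0068) in 7E, Hnrnpd (−0.017 to 0.0036) between the clones, and Hnrnpd (−0.024 to 0.00026) and Zfp36 (−0.18 to 0.077) for the clone difference. Of the member values that changed sign, those called with all libraries were Zfp36l1, Hnrnpd, Khsrp and Zfp36 in 7E and Khsrp between the clones, all with own spike-ins.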
